A study of Homo sapiens with 6 samples.

Results

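The p53 pathway was represented by 35 genes, taken by their symbols as known targets and feedback regulators of p53, and all 35 were found among the 46427 genes of the count table. The rule used no measured value, but the list was drawn up with earlier results of these data known. All 35 also passed the expression filter that left 18366 genes for testing, SPATA18 only through its reads in knockout cells. The libraries came from HCT116, a human colon carcinoma cell line that carries wild-type p53. The cells were grown in DMEM with 10% FBS, and no drug or DNA-damaging treatment is described for the sequenced cultures. Parental HCT116 cells (ZK3-WT) were compared with HCT116 cells in which CRISPR/Cas9 had been aimed at the first exon of ZKSCAN3, a zinc-finger transcription factor, to remove its start codon on both alleles (ZK3-KO). Each genotype was sequenced as 3 biological replicates from stranded polyadenylated RNA. ZK3-KO cells were obtained by transfection, puromycin selection and growth from single cells, and the parental cells are not described as having been through these steps, so the mutation and the derivation of the line cannot be told apart. The question addressed here is which p53 genes differed between the genotypes in these cultures, whose state of stress was not measured.

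p53 is a transcription factor that is kept low in unstressed cells by MDM2, an E3 ubiquitin ligase that is itself a p53 target. When p53 accumulates it binds a response element made of a pair of like sites and raises transcription of genes for cell-cycle arrest, apoptosis, DNA repair and metabolism. Through the kinase inhibitor p21, the product of CDKN1A, it also lowers many cell-cycle genes by way of the DREAM complex.

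Members with a p53 response element near their annotated start are shown by sequence for the genes that the results below turn on, with the 4-base core of each of the paired sites in capitals.
SPATA18: ggaCATGtgtgtaCATGccc
BAX: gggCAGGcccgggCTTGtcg
BTG2: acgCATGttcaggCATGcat
CDKN1A: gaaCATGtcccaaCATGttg
MDM2: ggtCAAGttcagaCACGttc
GDF15: agaCCTGcccggaCATGtcc
FAS: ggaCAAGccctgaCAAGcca
PLK2: gggCAAGtccaggCATGttt
ZMAT3: aggCATGtctggaCTTGttt
All are forward-strand sequence of GRCh37, and the element reads the same on both strands, so 1 search covered both. Distances are from the annotated gene start to the centre of the element. The SPATA18 element (chr4:52918123-52918142) lies in an intron 662 bases downstream of the start. The BAX element (chr19:49458470-49458489) lies 407 bases downstream and overlaps an exon of at least 1 transcript, which does not make it exonic in the others. The CDKN1A element (chr6:36644226-36644245) overlaps an exon of at least 1 transcript, centred 2 bases before the start used here. That start is the outermost of the annotated gene, and the starts of single transcripts were not used. The BTG2 element (chr1:203272770-203272789) and the GDF15 element (chr19:18484757-18484776) lie 1840 and 775 bases upstream. The MDM2 element (chr12:69202703-69202722) is intronic, 755 bases downstream. The FAS element (chr10:90751066-90751085) is 661 bases downstream and, like that of BAX, overlaps an exon of at least 1 transcript. The PLK2 element (chr5:57758101-57758120), 2144 bases upstream, and the ZMAT3 element (chr3:178787976-178787995), in an intron 2018 bases downstream, matched the p53 response element without a mismatch, the GDF15 element had 1 mismatch and the others shown had 2.

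An element of 20 bases with at most 2 mismatches was present within 3000 bases of the start of 16 of the 35 members (45.7%) and of 640 of 13784 tested protein-coding genes (4.64%). With at most 1 mismatch the counts were 6 members (17.1%) and 74 genes (0.537%), and with none they were 2 members (5.71%) and 10 genes (0.0725%). The members are known p53 targets, so this excess describes the choice of genes. The search required the C and G of both cores and allowed no spacer, and a member without a match only lacks these letters in this window. The 16 members with an element had a median log2 fold change of 0.16, and the 19 without one had a median of 0.14. The windows with an element held both called members, BAX and SPATA18, but 6 of the 9 members whose ZK3-KO libraries all exceeded the ZK3-WT libraries had no match.

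**Figure D1:**
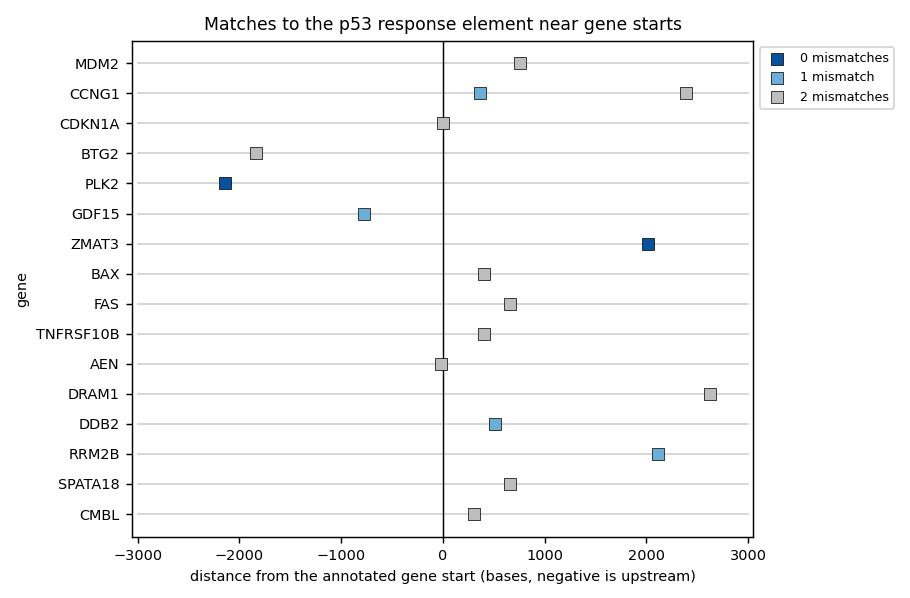
Positions of p53 response elements of 20 bases with at most 2 mismatches in the members, as the distance in bases from the annotated gene start (x axis) for each gene (y axis), with the number of mismatches shown by the marker. Elements lie on both sides of the start, between 2144 bases upstream in PLK2 and 2623 bases downstream in DRAM1.

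Library totals ran from 60827060 to 69739215 counted reads. edgeR's quasi-likelihood test, with p-values adjusted by the Benjamini-Hochberg method to an FDR with a threshold of 0.05, called 376 of the tested genes (2.05%), 150 (0.817%) higher and 226 (1.23%) lower in ZK3-KO cells. ZK3-KO replicate 3 stood apart: its log2 CPM (reads scaled to a common library size, with TMM factors) correlated at 0.9586 and 0.9444 across genes with the other ZK3-KO libraries, which correlated at 0.9815 with each other, while ZK3-WT pairs lay between 0.9808 and 0.9864. Without it, 2858 of 18872 genes (15.1%) passed, 1399 higher (7.41%) and 1459 lower (7.73%). Values without this library are given below where a call or a log2 fold change moved markedly. ZKSCAN3 measured 28.1, 23.4 and 19.8 CPM in the parental libraries (ZK3-WT replicates 1 to 3, the order used throughout), and the ZK3-KO libraries gave 25.4, 24.9 and 13.6 CPM. These ranges overlap (log2 fold change -0.16, standard error 0.27, edgeR FDR 0.797), and counts per gene do not show the edited codon, so the amount of ZKSCAN3 RNA does not check the labels. Epithelial markers summed to between 2961 and 3737 CPM in ZK3-WT and between 2741 and 5445 CPM in ZK3-KO libraries, with VIL1 under 0.1 CPM. The 10 markers of immune, endothelial and fibroblast cells summed to between 34.8 and 109 CPM over all libraries, most of it COL1A1, with PTPRC and CD3E at 0.

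Of the 35 p53 genes, 2 passed the FDR of 0.05 and both were higher in ZK3-KO cells: BAX, the pore-forming executor of mitochondrial apoptosis, and SPATA18, which encodes a protein of mitochondrial quality control. Over all tested genes 0.817% were called higher. SPATA18 had almost no reads in ZK3-WT cells and entered the test through the ZK3-KO libraries, where it was high. A gene of this kind therefore had to differ. BAX was read in every library and did not enter in that way. Its call was nevertheless lost without an expression filter, where SPATA18 alone among the members passed. With a floor of 10 reads in each library, 34 members were tested and 0 passed in edgeR's test. None passed in the lower direction in edgeR's test, where 2 members (MDM4 and TRIM22) had an unadjusted p under 0.05 and DESeq2 and the linear model on TPM called 0. An unadjusted p under 0.05 was found for 9 members, 7 of them higher, against 18.4% of all tested genes in either direction. The lowest ZK3-KO library exceeded the highest ZK3-WT library in 9 members (12.7% of all tested genes), the reverse held in 2 (13.8%), and the groups overlapped in the other 24. The share of members whose groups did not overlap, 31.4%, was near that of all tested genes, 26.6%.

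The log2 fold change was above 0 in 26 members (74.3%), against 51.7% of all tested genes, and in 17 members in the linear model on log2(TPM + 1). Its median over the members was 0.14 beside 0.02 over all tested genes, and on log2(TPM + 1) the sign of the median turned, to -0.03 beside -0.08. Without ZK3-KO replicate 3 the members' median was 0.29 beside -0.02, and 10 members passed in edgeR's test. That fit called 7.41% of all its tested genes higher, 7.73% lower and 15.1% in either direction. FAS, BAX, BTG2, SUSD6, PHLDA3, SESN1, RPS27L, TRIAP1 and SPATA18 were then higher, and GDF15 was lower. DESeq2 with all libraries called 7 members, all higher (BAX, BTG2, SUSD6, PHLDA3, RPS27L, TRIAP1 and SPATA18), where it called 3.87% of all tested genes higher, 4.33% lower and 8.2% in either direction. With the replicate number as a block in edgeR's fit, SPATA18 alone among the members passed, against 0.969% of all tested genes higher, 1.54% lower and 2.51% in either direction.

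**Figure D2:**
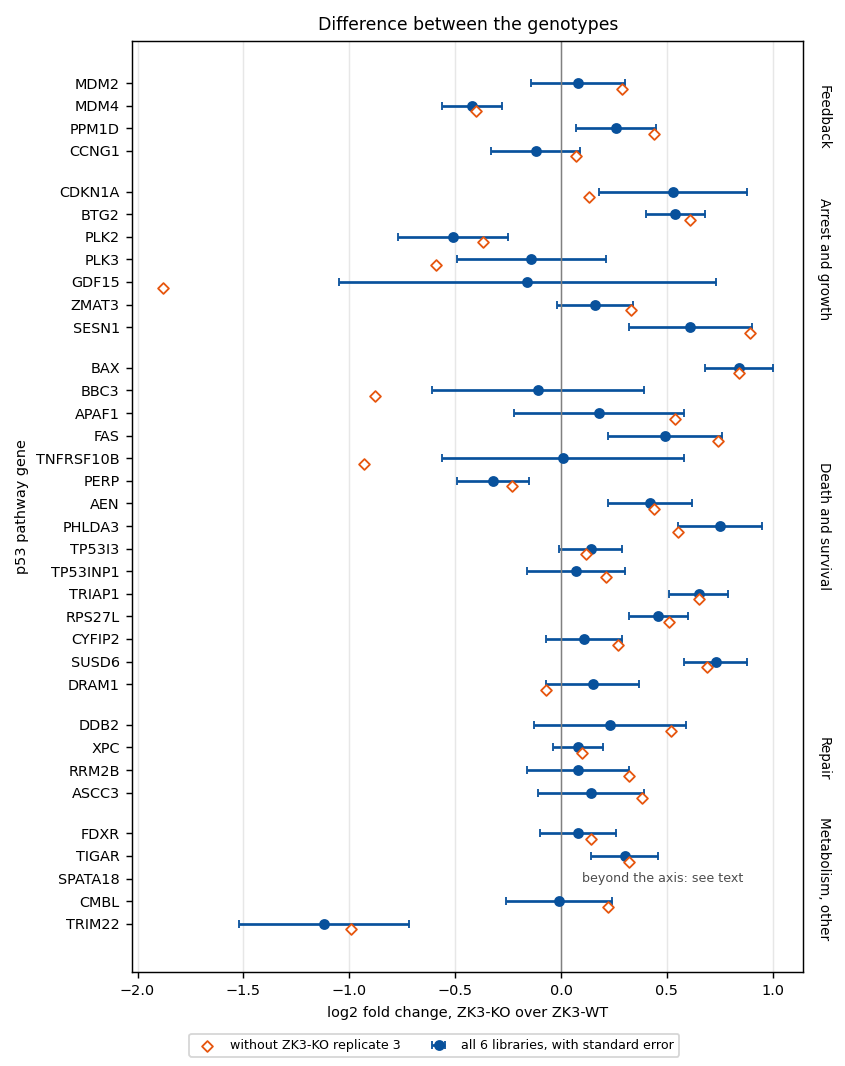
The log2 fold change of ZK3-KO over ZK3-WT from edgeR (x axis) for each member by role (y axis), with bars of 1 standard error and the value without ZK3-KO replicate 3 beside it. Most members lie above 0, while GDF15, BBC3 and TNFRSF10B move to the left without that library. SPATA18, at 5.94, lies beyond the axis.

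Among the 4 feedback regulators, none passed in edgeR's test, and neither DESeq2 nor the linear model on TPM called any. Unadjusted p was under 0.05 for MDM4 alone, beside 18.4% of all tested genes. MDM2 was at 202, 201 and 183 CPM in ZK3-WT and at 239.6, 237 and 143 CPM in ZK3-KO libraries. ZK3-KO replicates 1 and 2 were the highest of the libraries and replicate 3 the lowest, so the groups overlapped (log2 fold change 0.08, standard error 0.22, edgeR FDR 0.884, and 0.29 with FDR 0.134 without replicate 3). Of the exon bases of MDM2, 11.1% overlap genes on the opposite strand, and the strand setting of the counting is not given in the sources used here. MDM4, which encodes an MDM2 relative that masks the transactivation domain of p53, was at 122, 110.2 and 114 CPM in ZK3-WT and at 94.9, 79.3 and 85.1 CPM in ZK3-KO libraries. Every ZK3-KO library lay below every ZK3-WT library, but the difference missed the threshold (log2 fold change -0.42, standard error 0.14, edgeR FDR 0.179). PPM1D, the gene of the phosphatase WIP1 that removes activating phosphates from p53, averaged 41.1 ± 1.63 CPM in ZK3-WT and 49.3 ± 10.9 CPM in ZK3-KO cells (SD, n = 3). CCNG1, encoding cyclin G1, averaged 139 ± 17.2 and 128 ± 29.3 CPM. Both were lowest in ZK3-KO replicate 3, as MDM2 was, and their log2 fold changes of 0.26 and -0.12 did not pass (edgeR FDR 0.502 and 0.804). Without replicate 3 these were 0.44 and 0.07 (edgeR FDR 0.0526 and 0.783).

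Of the 7 arrest and growth genes, none passed in edgeR's test and the linear model on TPM called 0. An unadjusted p under 0.05 was found for 1 (BTG2), beside 18.4% of all tested genes. DESeq2 called BTG2 alone, beside 8.2% of all tested genes in either direction. CDKN1A, the gene of p21, was at 209, 216 and 314 CPM in ZK3-WT and at 339, 198 and 525 CPM in ZK3-KO libraries. ZK3-KO replicate 2 was the lowest and replicate 3 the highest of the libraries, so the groups overlapped widely (log2 fold change 0.53, standard error 0.35, edgeR FDR 0.473). Without replicate 3 the log2 fold change was 0.13 (edgeR FDR 0.756). BTG2, an antiproliferative gene, was at 28.9, 28.1 and 28.7 CPM in ZK3-WT and at 46.2, 41.0 and 37.1 CPM in ZK3-KO libraries. All ZK3-KO libraries were higher, and the ZK3-WT values were close together (log2 fold change 0.54, standard error 0.14, edgeR FDR 0.114, and 0.61 with FDR 0.0186 without replicate 3).

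GDF15, which encodes a secreted stress cytokine, had a coefficient of variation of 55.6% among ZK3-WT and 122% among ZK3-KO libraries, the widest among ZK3-KO libraries of any member. It was at 230.2, 445 and 759 CPM in ZK3-WT and at 186, 73.1 and 1024 CPM in ZK3-KO libraries. ZK3-KO replicates 1 and 2 were lower than every ZK3-WT library while replicate 3 was higher than all of them. The log2 fold change was -0.16 with all libraries (standard error 0.89, edgeR FDR 0.947) and -1.88 without ZK3-KO replicate 3 (edgeR FDR 0.0394). SESN1, a sestrin that restrains mTORC1, was at 12.2, 10.0 and 10.5 CPM in ZK3-WT and at 18.6, 21.6 and 9.74 CPM in ZK3-KO libraries. Here replicate 3 was the lowest library, and the log2 fold change was 0.61 with it (edgeR FDR 0.323) and 0.89 without it (edgeR FDR 0.0113). PLK2 and PLK3, polo-like kinases of the stress response, averaged 88.7 ± 27.9 and 41.0 ± 10.8 CPM in ZK3-WT cells against 62.2 ± 11.5 and 37.2 ± 18.1 CPM in ZK3-KO cells (SD, n = 3). ZMAT3, an RNA-binding zinc-finger gene, averaged 39.4 ± 2.81 and 44.0 ± 8.95 CPM. The groups of these 3 genes overlapped, with log2 fold changes of -0.51, -0.14 and 0.16 (edgeR FDR 0.356, 0.873 and 0.694), although PLK2 and ZMAT3 hold the elements without a mismatch. Without replicate 3 they were -0.37, -0.59 and 0.33 (edgeR FDR 0.342, 0.129 and 0.129).

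**Figure D3:**
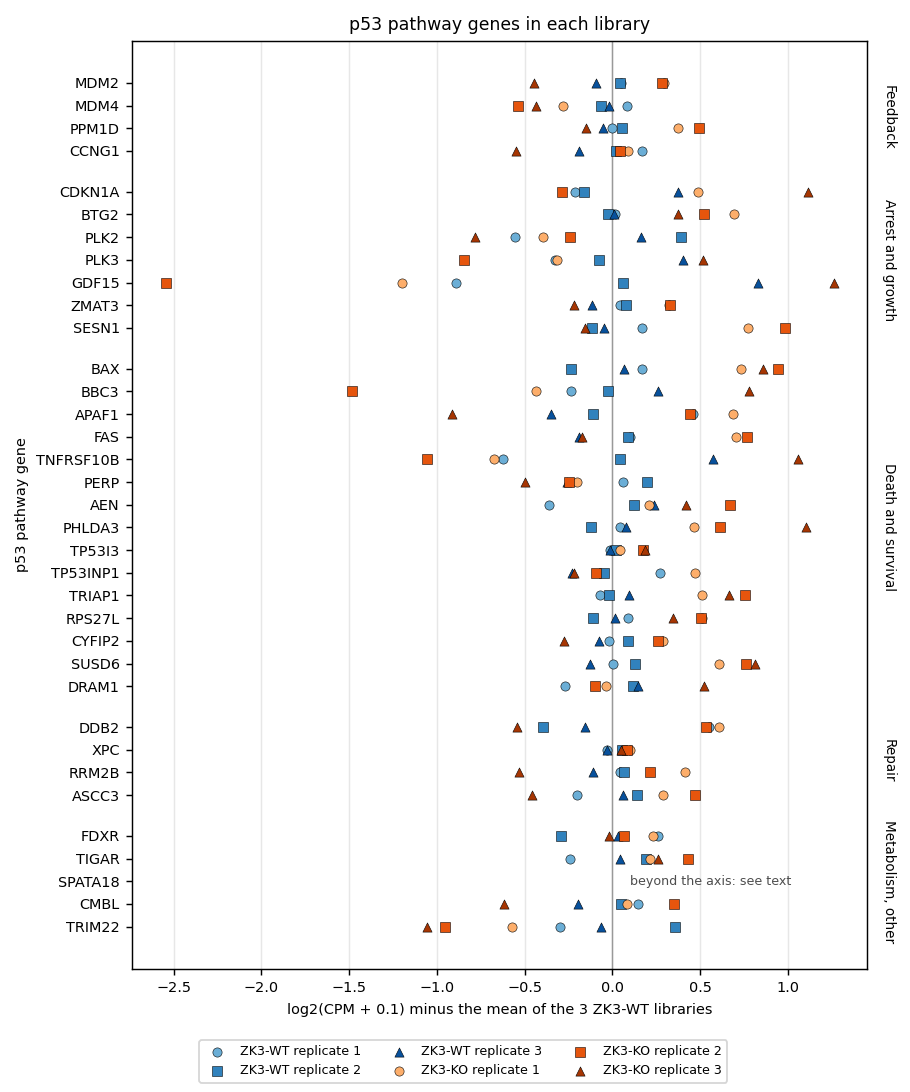
Level of each member in each library as log2(CPM + 0.1) minus the ZK3-WT mean (horizontal axis), by role, with SPATA18 left out. BAX, TRIAP1 and SUSD6 have every ZK3-KO library above every ZK3-WT library, whereas GDF15, BBC3 and TNFRSF10B have ZK3-KO replicate 3 at the top and replicates 1 and 2 below it.

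The 15 genes of cell death and survival held most of the members with separated groups: in 6 of them every ZK3-KO library exceeded every ZK3-WT library, and in none was it the other way, beside 12.7% and 13.8% of all tested genes. Their log2 fold change was above 0 in 13, and its median was 0.18, or 0.44 when ZK3-KO replicate 3 was left out. Only BAX passed in edgeR's test, while unadjusted p-values were under 0.05 for 5, beside 18.4% of all tested genes. DESeq2 called 5 (BAX, SUSD6, PHLDA3, RPS27L and TRIAP1), where it called 3.87% of all tested genes higher, and edgeR's fit without ZK3-KO replicate 3 called these and FAS, where it called 7.41% higher.

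BAX (GRCh37 chromosome 19, 49458072 to 49465055, forward strand) was at 35.5, 26.8 and 33.0 CPM in ZK3-WT and at 52.6, 60.7 and 57.3 CPM in ZK3-KO libraries. Every ZK3-KO library was well above the highest ZK3-WT library. The means were 31.8 ± 4.45 and 56.9 ± 4.07 CPM (SD, n = 3), a 1.79-fold difference (log2 fold change 0.84, standard error 0.16, edgeR FDR 0.0469). The log2 fold change stayed between 0.73 and 0.92 as each library was left out, but the FDR lay close to the threshold. It was 0.0584 in the edgeR fit with the replicate block, up to 0.230 without ZK3-WT replicate 2, and under the threshold in 2 of 12 alternatives, DESeq2 (0.000195) and the fit without ZK3-KO replicate 3 (0.0115).

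TRIAP1, a small inhibitor of apoptosome activation, was at 24.9, 25.8 and 27.9 CPM in ZK3-WT and at 37.4, 44.3 and 41.6 CPM in ZK3-KO libraries. The groups did not overlap, and the difference fell short of the threshold (log2 fold change 0.65, standard error 0.14, edgeR FDR 0.0679, and 0.65 with FDR 0.0206 without ZK3-KO replicate 3). SUSD6 was at 16.2, 17.7 and 14.8 CPM in ZK3-WT and at 24.7, 27.5 and 28.5 CPM in ZK3-KO libraries (log2 fold change 0.73, standard error 0.15, edgeR FDR 0.0613, and 0.69 with FDR 0.0205 without ZK3-KO replicate 3). The groups of SUSD6 were separated in the same way, but the gene lies on chromosome 14, where the median log2 fold change of 504 tested genes was 0.51, and its part in this value was not tested. The median was 0.02 over all tested genes and 0.14 on chromosome 19, which holds BAX.

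PHLDA3, a repressor of AKT signalling, was at 19.3, 17.2 and 19.8 CPM in ZK3-WT and at 25.9, 28.7 and 40.4 CPM in ZK3-KO libraries. All ZK3-KO libraries were higher and replicate 3 was the highest (log2 fold change 0.75, standard error 0.20, edgeR FDR 0.114, and 0.55 with FDR 0.0372 without replicate 3). Of its exon bases, 18.4% are shared with another annotated gene on the same strand. RPS27L, a close relative of the ribosomal protein gene RPS27 with which it could share reads, was at 31.8, 27.7 and 30.2 CPM in ZK3-WT and at 42.6, 42.4 and 37.9 CPM in ZK3-KO libraries. Its groups were separate (log2 fold change 0.46, standard error 0.14, edgeR FDR 0.151, and 0.51 with FDR 0.0338 without ZK3-KO replicate 3). TP53I3, a quinone oxidoreductase linked to oxidative stress, also did not overlap between groups, at 12.3, 12.6 and 12.3 against 12.8, 14.0 and 14.1 CPM. The gap was small beside the standard error (log2 fold change 0.14, standard error 0.15, edgeR FDR 0.667).

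Death receptor genes differed from this picture. FAS was at 10.7, 10.6 and 8.72 CPM in ZK3-WT and at 16.3, 17.0 and 8.84 CPM in ZK3-KO libraries. ZK3-KO replicate 3 lay among the ZK3-WT libraries, and the log2 fold change was 0.49 with it (edgeR FDR 0.383) and 0.74 without it (edgeR FDR 0.0217). Of the exon bases of FAS, 36.4% overlap genes on the opposite strand, among them ACTA2. TNFRSF10B, the gene of the TRAIL receptor DR5, was at 222, 352 and 509 CPM in ZK3-WT and at 214, 164 and 711 CPM in ZK3-KO libraries. As in GDF15, ZK3-KO replicate 3 was the highest library and replicates 1 and 2 the lowest, so that the log2 fold change was 0.01 with it (edgeR FDR 0.996) and -0.93 without it (edgeR FDR 0.0691). BBC3, which encodes the BH3-only protein PUMA, followed the same order at 32.2, 37.2 and 45.3 CPM against 28.0, 13.5 and 65.0 CPM. Its log2 fold change was -0.11 with replicate 3 (edgeR FDR 0.936) and -0.88 without it (edgeR FDR 0.0707). Thus BAX and PUMA, which act in the same mitochondrial route, differed in their values: BAX was higher in every ZK3-KO library, and BBC3 was lower in 2 and higher in 1.

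The other 6 genes of this role had overlapping groups. AEN, an apoptosis-enhancing nuclease, averaged 55.7 ± 11.6 CPM in ZK3-WT and 74.7 ± 12.0 CPM in ZK3-KO cells (SD, n = 3), with a log2 fold change of 0.42 (edgeR FDR 0.325). PERP, a desmosomal membrane protein gene, averaged 196 ± 30.4 and 157 ± 16.5 CPM, with a log2 fold change of -0.32 (edgeR FDR 0.370). APAF1, the scaffold of the apoptosome, DRAM1, a lysosomal gene of autophagy, CYFIP2, a subunit of the actin-regulating WAVE complex, and TP53INP1, a p53 cofactor, had log2 fold changes of 0.18, 0.15, 0.11 and 0.07. None of these 4 passed in edgeR's test (FDR 0.848, 0.764, 0.796 and 0.902), nor without ZK3-KO replicate 3, where the log2 fold changes were 0.54, -0.07, 0.27 and 0.21 (edgeR FDR 0.130, 0.797, 0.164 and 0.519).

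All 4 repair genes had a log2 fold change above 0 and overlapping groups, and none passed in edgeR's test. Unadjusted p was under 0.05 for 0, beside 18.4% of all tested genes. DESeq2 and the linear model on TPM called 0, where DESeq2 called 8.2% of all tested genes. DDB2, which recognises ultraviolet damage, was at 44.6, 23.1 and 27.3 CPM in ZK3-WT and at 46.4, 44.0 and 20.8 CPM in ZK3-KO libraries. The spread within each genotype exceeded the difference between them (log2 fold change 0.23, standard error 0.36, edgeR FDR 0.781, and 0.52 with FDR 0.176 without ZK3-KO replicate 3). XPC, the damage sensor of global nucleotide excision repair, was the steadiest, at 57.2, 60.7 and 57.2 against 62.6, 61.8 and 60.4 CPM. Its log2 fold change was 0.08 (standard error 0.12, edgeR FDR 0.782), and 33.5% of its exon bases overlap antisense annotation. RRM2B, the p53-inducible ribonucleotide reductase subunit, averaged 87.1 ± 5.63 CPM in ZK3-WT and 92.3 ± 29.0 CPM in ZK3-KO cells. ASCC3, a helicase of alkylation repair, averaged 71.2 ± 8.55 and 78.7 ± 24.3 CPM (SD, n = 3). DDB2, RRM2B and ASCC3 were lowest in ZK3-KO replicate 3, and the median log2 fold change of the repair genes was 0.11 with that library and 0.35 without it. RRM2B was then at 0.32 and ASCC3 at 0.38 (edgeR FDR 0.127 and 0.118).

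SPATA18 was the member with the widest difference and, in ZK3-WT cells, the lowest level. Its reads numbered 0, 0 and 5 in ZK3-WT replicates 1 to 3 and 117, 140 and 62 in ZK3-KO replicates 1 to 3. The gene was almost unread in parental cells and present in every ZK3-KO library, with replicate 3 the lowest of these. The ratio of pooled reads per library size was 66.1 with an exact 95% interval of 28.0 to 205, which covers counting error only. In edgeR's test the FDR was 0.0253, with a fitted log2 fold change of 5.94 that depends on the prior count. SPATA18 passed the expression filter only through the ZK3-KO libraries, where it was high. The interval, the FDR and the alternatives below therefore describe it and lend the difference no further weight. The gene (GRCh37 chromosome 4, 52917470 to 52963465, forward strand) shares no exon bases with another annotated gene. It could be tested in 11 alternatives and passed in 6, among them the replicate block (edgeR FDR 0.0317) and the fit without ZK3-KO replicate 3 (edgeR FDR 0.00199). The highest FDR, 0.166, came from the linear model on log2(TPM + 1), and leaving out ZK3-WT replicate 1 or 2 or ZK3-KO replicate 1 or 2 also ended the call.

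The other metabolic and remaining members did not pass. TIGAR, a fructose bisphosphatase that lowers glycolytic flux, was at 24.2, 32.7 and 29.5 CPM in ZK3-WT and at 33.2, 38.6 and 34.2 CPM in ZK3-KO libraries. The groups were separate by a narrow margin (log2 fold change 0.30, standard error 0.16, edgeR FDR 0.386), and 18.1% of its exon bases are shared with another annotated gene on the same strand. TRIM22, an interferon-responsive ubiquitin ligase gene, was the reverse, at 0.398, 0.685 and 0.486 CPM against 0.311, 0.216 and 0.194 CPM. All ZK3-KO libraries were lower, from only 12 to 48 reads per library (log2 fold change -1.12, standard error 0.40, edgeR FDR 0.204). FDXR, ferredoxin reductase of mitochondria, averaged 73.7 ± 13.9 CPM in ZK3-WT and 77.9 ± 7.04 CPM in ZK3-KO cells (SD, n = 3). CMBL, a hydrolase gene, averaged 54.4 ± 6.58 and 53.9 ± 17.1 CPM. The log2 fold changes of FDXR and CMBL were 0.08 and -0.01 (edgeR FDR 0.850 and 0.984), and without ZK3-KO replicate 3 they were 0.14 and 0.22 (edgeR FDR 0.607 and 0.361).

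On the TPM scale, which accounts for transcript length and so allows levels of different genes to be set side by side, the members spanned several orders of magnitude. GDF15 was the most abundant in ZK3-WT cells with a mean of 839 TPM, followed by CDKN1A with 249.5, TNFRSF10B with 193 and CCNG1 with 121 TPM. In ZK3-KO cells these genes averaged 624, 320.1, 166 and 104 TPM and kept that order. In ZK3-KO cells the order of GDF15 and CDKN1A did not hold beyond the spread, since GDF15 ran from 125 to 1426 TPM and CDKN1A from 199.5 to 419 TPM. BAX averaged 61.1 TPM in ZK3-WT and 98.8 TPM in ZK3-KO cells. At the low end FAS averaged 5.61 and 7.66, TRIM22 0.378 and 0.161, and SPATA18 0.00891 and 0.752 TPM.

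**Figure D4:**
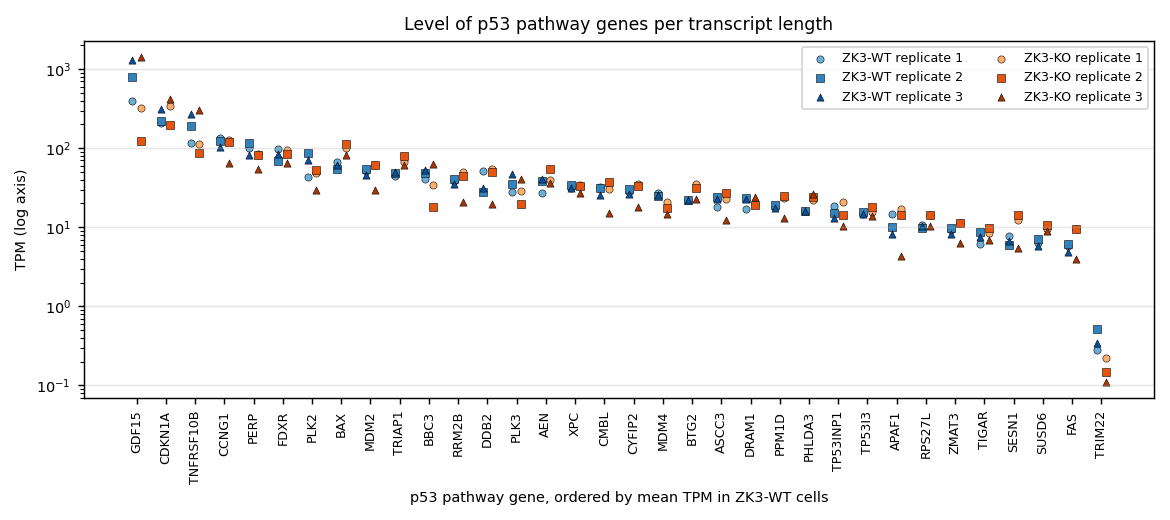
TPM of each member in each library (vertical log axis, one point per library), with genes ordered by their mean in ZK3-WT cells (horizontal axis) and SPATA18 left out. GDF15 has the highest means, 839 TPM in ZK3-WT and 624 TPM in ZK3-KO cells, and TRIM22 the lowest of those plotted, 0.378 and 0.161 TPM.

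ZK3-KO replicate 3 lay at opposite ends of the range in different members. It was the highest of the 6 libraries in 9 members (25.7%, against 28.8% of all tested genes): CDKN1A, PLK3, GDF15, BBC3, TNFRSF10B, PHLDA3, TP53I3, SUSD6 and DRAM1. It was the lowest in 14 (40.0%, against 27.5%), among them MDM2, PPM1D, CCNG1, SESN1, APAF1, DDB2 and RRM2B. In 7 of the 9 members where it was highest, ZK3-WT replicate 3 was also the highest of its genotype, and in 9 of the 14 where it was lowest, ZK3-WT replicate 3 was the lowest. What sets these libraries apart was not tested. The median coefficient of variation was 12.4% in ZK3-WT and 24.2% in ZK3-KO libraries over the members, close to 14.3% and 24.4% over all tested genes.

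By role, the death and survival genes gave the steadiest medians: relative to the ZK3-WT mean they lay at 0.47, 0.44 and 0.42 on the log2 scale in ZK3-KO replicates 1 to 3, and between 0.00 and 0.02 in ZK3-WT libraries. The single genes were less steady, and the median of their log2 fold changes was 0.18. APAF1, FAS and CYFIP2 lay above the ZK3-WT mean in ZK3-KO replicates 1 and 2 and below it in replicate 3. TNFRSF10B, BBC3 and DRAM1 did the reverse. The feedback genes lay at 0.19, 0.16 and -0.45, and the repair genes at 0.35, 0.34 and -0.50. Both groups therefore had replicates 1 and 2 above the ZK3-WT libraries and replicate 3 below them. The arrest genes lay at 0.32, -0.25 and 0.38, with replicate 2 the lowest.

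**Figure D5:**
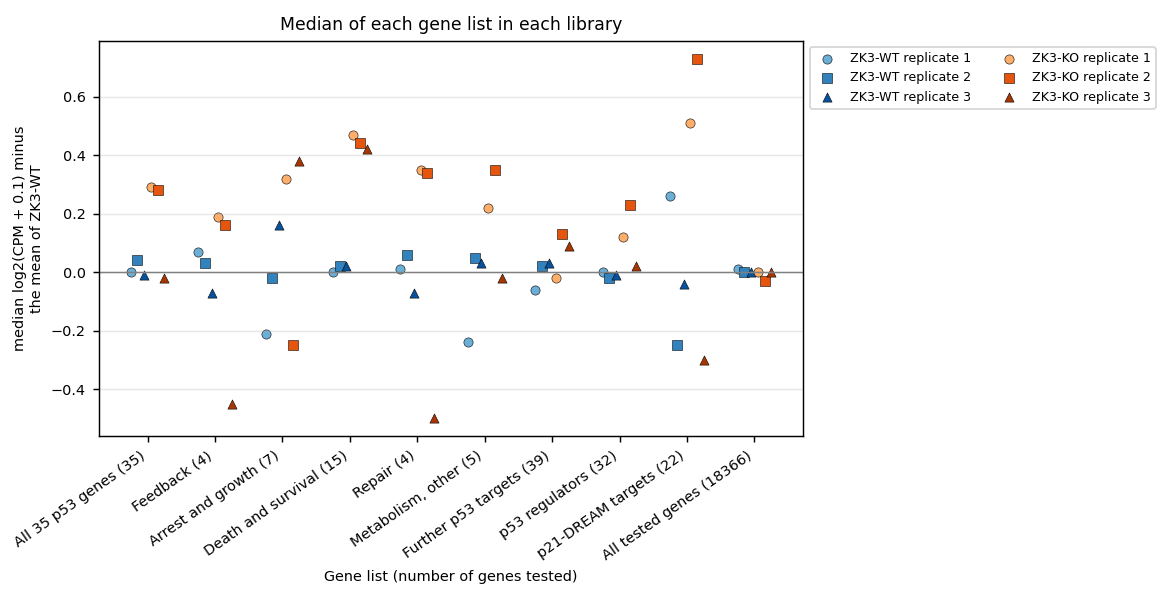
Median log2(CPM + 0.1) minus the ZK3-WT mean (vertical axis) in each library for the members, their roles, 3 further gene lists and all tested genes (horizontal axis, with the number of genes). The death and survival genes lie between 0.42 and 0.47 in all ZK3-KO libraries, while the feedback, repair and p21-DREAM lists have ZK3-KO replicate 3 below 0.

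Of 40 further p53 targets outside the 35 genes 39 were tested, 23 had a log2 fold change above 0, and the median was 0.07. None was called higher and 1, LIF, was called lower in edgeR's test, while 6 and 5 had an unadjusted p under 0.05 in these directions and DESeq2 called 3 higher and 2 lower. Over all tested genes 18.4% had an unadjusted p under 0.05 in either direction and DESeq2 called 3.87% higher and 4.33% lower. Without ZK3-KO replicate 3, edgeR's test called 7 higher and 5 lower, beside 7.41% and 7.73% of all genes tested in that fit. The further targets and the members were not tested against each other. LIF, which encodes a cytokine of the interleukin-6 family, was at 154, 237 and 302 CPM in ZK3-WT and at 32.7, 30.2 and 56.3 CPM in ZK3-KO libraries. Every ZK3-KO library was far below every ZK3-WT library, a 5.82-fold difference of the means (log2 fold change -2.54, standard error 0.34, edgeR FDR 0.0154), and the call held in 7 of 12 alternatives. It was lost, with FDR values up to 0.0998, when ZK3-WT replicate 2 or 3 or ZK3-KO replicate 1 or 2 was left out and in the linear model on TPM. With the replicate block 3 of these genes passed in edgeR's test, LIF and TLR3 lower and TNFRSF10D higher.

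Of 33 genes listed for the control of p53 activity, 32 were tested, and none passed in edgeR's test. An unadjusted p under 0.05 was found for 6, DESeq2 called 3 (DAXX, PRMT5 and PPP1R13B) and the linear model on TPM called 1 (PPP1R13B). Over all tested genes the shares were 18.4% for the unadjusted p and 8.2% for DESeq2, near those of these genes. Without ZK3-KO replicate 3, 6 passed in edgeR's test, 5 of them higher, beside 15.1% of all genes in either direction. PPP1R13B, the gene of ASPP1, which steers p53 towards apoptotic targets, had the highest log2 fold change, 0.73 (standard error 0.14, edgeR FDR 0.0532), and lies on chromosome 14. It was at 22.2, 20.1 and 22.0 CPM in ZK3-WT and at 34.2, 33.2 and 39.1 CPM in ZK3-KO libraries.

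Among 22 cell-cycle genes that p53 lowers through p21 and DREAM, the log2 fold change was above 0 in 21, with a median of 0.41. Yet none passed in edgeR's test, unadjusted p was under 0.05 for 2, and DESeq2 and the linear model on TPM called 0. The shares over all tested genes were 18.4% for the unadjusted p and 8.2% for DESeq2. The median of the list was 0.51 and 0.73 above the ZK3-WT mean in ZK3-KO replicates 1 and 2 and -0.30 in replicate 3, on the log2 scale. The ZK3-WT libraries themselves lay at 0.26, -0.25 and -0.04, a range as wide as the distance of ZK3-KO replicate 1 from their mean. Without replicate 3 the median log2 fold change was 0.62 and 13 of the genes passed in edgeR's test, all higher, beside 7.41% of all genes called higher in that fit. CDC25A, a phosphatase of the G1/S transition, had the highest value (1.11, standard error 0.42, edgeR FDR 0.228) and CDC25C, a phosphatase of mitotic entry, the lowest (-0.42, edgeR FDR 0.346). CDC25A was at 15.9, 17.1 and 18.9 CPM in ZK3-WT and at 31.3, 63.3 and 17.2 CPM in ZK3-KO libraries. Its log2 fold change was 0.49 without ZK3-KO replicate 2 and 1.46 without ZK3-KO replicate 3 (edgeR FDR 0.00935 for the latter).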

How the data were processed

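RNA of 3 ZK3-WT and 3 ZK3-KO cultures of HCT116 was sequenced by the authors as 150 bp paired-end reads from stranded libraries. The authors deposited read counts per gene without normalization, and TPM values that the authors scaled by transcript length. FPKM values were not used. The submitters' processing notes name Bowtie2 2.2.5 and hg19 (GRCh37); the strand setting of the counting is not given in the sources used here. The methods name Ensembl transcripts, whereas the table carries NCBI Gene identifiers.

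The count analysis used edgeR 4.0.16 under R 4.3.3: filterByExpr, TMM factors (0.910 to 1.03) and the quasi-likelihood test of genotype over all 6 libraries, with Benjamini-Hochberg adjustment over 18366 genes and a threshold of 0.05. Counts summed to 60827060 to 69739215 per library, and p-values measure the spread between cultures of 1 parental and 1 knockout line only. DESeq2 1.42.0, a linear model in limma 3.58.1 on log2(TPM + 1), other filters and factors, a replicate block and each library left out were alternatives. The study's methods used an ANOVA on TPM. The test was checked on simulated counts. These held no outlying library and no shared deviation of same-numbered replicates, so the check does not cover those features of the data.

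Libraries numbered 1 in the labels, and those numbered 3, deviated together from their genotype means (correlations across genes 0.261 and 0.419). The pair numbered 2, at 0.108, lay within the range of pairs with unlike numbers, -0.32 to 0.196. What the number marks is not stated. No library was a copy of another.

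The 35 members, the other gene lists and the rule for named genes (all members, ZKSCAN3, and in each further list the genes past the threshold and those highest and lowest in fold change) were chosen with earlier results of these data known. Some genes that this rule names are not reported here. Members called under alternatives are named as well. Gene positions and starts are those of GENCODE v44 lifted to GRCh37, matched by symbol for 146 of 147 listed genes. p53 response elements were searched as 20 bases made of 2 sites of 10. Elements on chromosome 8 are not printed.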

Additional observations from a re-analysis of the deposited data

How the results depend on the processing

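The members called higher numbered 2 in edgeR's test with all libraries, 7 by DESeq2, 1 with upper-quartile factors, 1 without an expression filter, 0 under a floor of 10 reads per library (SPATA18 was then not tested), 0 in the linear model on log2(TPM + 1), 1 with the replicate block, and 0 to 9 as each library was left out. Those called lower numbered 0, and 0 to 1 as each library was left out. The 376 calls over all genes became 1506 by DESeq2 and 98 in the linear model on TPM, and 49 to 2858 as each library was left out. Of the calls, 39.9% were higher in edgeR's test and 26.5% in the linear model on TPM. The 1 further p53 target became 5, 0 and 3 by DESeq2, the linear model and the replicate block, and 0 to 12 as each library was left out. The 0 regulators became 3 by DESeq2 and 1 in the linear model, and 0 to 6 as each library was left out. The members' median log2 fold change of 0.14 was 0.11 with upper-quartile factors, -0.03 in the linear model, 0.10 with the replicate block, and 0.09 to 0.29 as each library was left out. The block ended the call of BAX and changed no other member's call. Apart from the smaller gene set behind the loss of SPATA18, the cause of these shifts was not tested.

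The sign turned in the following fits. In the linear model on TPM the log2 values were -0.08 for MDM2, -0.04 for APAF1, -0.35 for TNFRSF10B, -0.06 for TP53INP1, -0.03 for CYFIP2, -0.06 for XPC, -0.08 for RRM2B, -0.10 for ASCC3 and -0.03 for FDXR. TNFRSF10B was also at -0.00 without a filter, -0.01 with at least 10 reads and -0.22 with the replicate block. As each library was left out, the ranges that crossed 0 were -0.03 to 0.29 for MDM2, -0.22 to 0.07 for CCNG1, -0.59 to 0.13 for PLK3, -1.88 to 0.34 for GDF15, -0.88 to 0.28 for BBC3, -0.11 to 0.54 for APAF1, -0.93 to 0.36 for TNFRSF10B, -0.16 to 0.22 for TP53INP1, -0.07 to 0.26 for DRAM1, -0.10 to 0.32 for RRM2B, -0.05 to 0.38 for ASCC3, -0.06 to 0.22 for FDXR, -0.23 to 0.22 for CMBL and -0.29 to 0.09 for ZKSCAN3.

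With 3 libraries per genotype and 1 knockout line, the standard errors of most members exceed their differences, and a value that missed the threshold does not show equal levels. SPATA18 and TRIM22 rest on few reads.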
